A study of Mus musculus with 2 samples.

Results

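The genes described are 9 nuclear genes that set how many mitochondria a cell builds and what those mitochondria burn: the coactivator genes Ppargc1a and Ppargc1b, the estrogen-related receptor genes Esrra, Esrrb and Esrrg, the peroxisome proliferator-activated receptor genes Ppara and Ppard, and the factor genes Nrf1 and Tfam. They were picked by symbol and not by their values, though with earlier results of these data known, and are 9 of the 43346 gene IDs measured. Their 61 transcript models were used too. RNA came from skeletal muscle of newborn mice (B6NCrl strain, postnatal day 0), in 1 group of 2 samples that the labels call pup 1 (replicate 1) and pup 2 (replicate 2) of the same pregnancy. No treatment or altered allele is named, the sex was not collected, and which muscle was cut out is not stated. Both samples carry the same donor entry, so the spread between them is biological only if they are separate animals. Each library began with 10 ng of RNA longer than 200 nt. With 1 group there was no condition to compare and no test, and each value below is a level, a share or a difference between the 2 pups.

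PGC-1α and PGC-1β, the products of Ppargc1a and Ppargc1b, do not bind DNA themselves. They dock on receptors and factors that do, among them the ERR and PPAR receptors and NRF1, and raise transcription of genes for respiration, fatty acid oxidation and mitochondrial upkeep. NRF1 in turn acts on Tfam, whose protein enters the mitochondrion, packs its DNA and starts its transcription. In skeletal muscle PGC-1α is known for its induction by exercise and cold and for its part in oxidative, fatigue-resistant fibres.

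Newborn muscle expressed Tfam, Ppara, Esrra, both PGC-1 genes and Nrf1 at the middle to upper range of expressed genes, and Ppard, Esrrg and Esrrb near the lower end. In TPM (reads per length, scaled to a fixed sum per library), 8 of the 9 genes averaged 1 TPM or more. Esrrb was the exception. The same was true of 58.2% of protein-coding genes (12495 of 21474), whose median among those past 1 TPM was 11.8 TPM. Both pups gave the same broad order, with 6 genes above 9 TPM and 3 below 2 TPM.

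The forms of Ppargc1a and Tfam differ at short stretches of sequence that decide what protein is made, and these are shown first. Ppargc1a (ENSMUSG00000029167) lies on the minus strand of chromosome 5, from 51454250 to 51567726 (mm10, GENCODE M21 annotation). Model Ppargc1a-203, of 6464 nt, codes for the full protein of 797 codons. In model Ppargc1a-201, exon 7 starts 31 bases earlier (chr5:51490091-51490121, minus strand). Below, capitals mark these extra bases, after the last 21 bases of exon 6 and before the first 21 bases that both models share. The letters are from GENCODE M21 transcripts.

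Ppargc1a-201: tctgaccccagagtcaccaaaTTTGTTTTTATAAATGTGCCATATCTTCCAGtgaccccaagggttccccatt

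Ppargc1a-203: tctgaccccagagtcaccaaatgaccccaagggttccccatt

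The extra bases carry an in-frame stop, TAA, which starts at base 11 of the stretch, so the reading frame of Ppargc1a-201 ends after 270 codons. That short amino-terminal form is known as NT-PGC-1α, which keeps the activation domain and the part that docks on receptors. The annotation types the model as a target of nonsense-mediated decay. The authors' files list Ppargc1a-201 at 2698 nt against 3041 nt in GENCODE M21, so whether the model they counted on held these 31 bases is not shown by the files.

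Ppargc1a had 1107 expected counts in replicate 1 and 1334 in replicate 2, and its level was 9.9 and 12.0 TPM (mean 10.9 ± 1.48, SD, n = 2). That put it at the 69.8 percentile of protein-coding genes. The authors' deposited intervals for the level were 9.19 to 11.1 TPM in replicate 1 and 11.2 to 13.2 TPM in replicate 2, which do not overlap. Of the gene's TPM, Ppargc1a-201 took 65.8% in replicate 1 and 64.6% in replicate 2 (mean 65.2% ± 0.849, SD, n = 2). Ppargc1a-203 took 31.8% and 35.4%. By reads the order was the opposite in both pups, since the full-length model is the longer one: Ppargc1a-203 held 598 and 764 counts, and Ppargc1a-201 held 506 and 570. The share of counts in Ppargc1a-201 was 45.7% and 42.7%. The 2 models have most exons in common, so most reads were divided between them by the authors' quantification, and only reads over bases that differ tell them apart.

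Nearly all Ppargc1a reads were assigned to models that begin at the proximal first exon. That start accounted for 99.8% of the gene's counts in replicate 1 and 100% in replicate 2. The upstream first exon, known as the origin of forms that exercise and adrenergic signals raise in muscle, lies 13.8 kb before it. Its models Ppargc1a-202 and Ppargc1a-204 held 2.25 and 0 counts in replicate 1, and 0 and 0 in replicate 2. As quantified, these models were only 413 and 848 nt long, against 488 and 2452 nt in GENCODE M21. Reads from beyond those lengths would be given to the other models, so the share partly reflects the models available. By the deposited posterior means they took 4.3% and 2.93% of the gene's TPM in replicate 1, and 1.9% and 2.13% in replicate 2. At this depth a count of 0 allows up to 3 counts. The 100 bases before the upstream start (RefSeq, GRCm38.p6, chr5:51567726-51567825, minus strand) are shown because few reads were assigned to models that begin there.

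Ppargc1a upstream start: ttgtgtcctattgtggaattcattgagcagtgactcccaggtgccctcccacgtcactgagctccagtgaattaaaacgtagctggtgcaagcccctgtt

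The palindromic cAMP element, TGACGTCA, was searched on both strands of the 300-base window around this start (250 bases before and 50 after) and had no exact match. Among 32851 windows of RefSeq genes, 1.79% held 1. These letters were not in the window, which says nothing of the factor that binds such elements. The bases shown above do hold CGTCA, the letters that end the element. Shorter forms of the element were not searched over the windows, so no share can be set beside that. The proximal start was not searched.

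Ppargc1b (ENSMUSG00000033871) was the more abundant of the 2 coactivator genes, at 13.96 and 15.54 TPM in replicates 1 and 2 (mean 14.8 ± 1.12, SD, n = 2) from 1395 and 1415 counts. Its log2 ratio to Ppargc1a was 0.49 in replicate 1 and 0.37 in replicate 2 (mean 0.43 ± 0.09, SD, n = 2, with 0.1 TPM added to each gene). A ratio between genes is called beyond the spread here where its mean is over 3 SD and its sign is shared by both pups, and this one was. The lead grew when only models typed as coding were summed, since Ppargc1a-201 then drops out: Ppargc1a stood at 3.38 and 4.25 TPM of coding models and Ppargc1b at 13.1 and 13.9 TPM. In counts with no length correction the log2 ratio was 0.21 ± 0.18 (SD, n = 2) and no longer beyond the spread. Model Ppargc1b-202 held 92.9% and 89.8% of the TPM of Ppargc1b. Its non-coding model Ppargc1b-203, of 366 nt, held 6.49% and 10.2% of TPM with 7.24 and 12.0 counts. Pprc1, the third coactivator gene of the family, stood at 8.43 and 7.87 TPM. It was below Ppargc1b by a log2 ratio of -0.85 ± 0.18 (SD, n = 2), and its ratio to Ppargc1a, -0.42 ± 0.26, was within 3 SD.

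The receptor genes of the ERR family, orphan nuclear receptors that switch on respiratory genes when PGC-1 is bound, were led by Esrra. Esrra (ENSMUSG00000024955; chromosome 19, 6910977 to 6921813, minus strand) was at 19.45 and 22.67 TPM in replicates 1 and 2 (mean 21.1 ± 2.28, SD, n = 2), from 1191 and 1313 counts. Model Esrra-201 took 94.07% and 94.02% of that. Esrra shares 73 exon bases with Trmt112 on the opposite strand, which had 1300 and 1179 counts, and the sources used here do not state whether counting used strand, so reads over those bases could belong to either gene. Esrrg (ENSMUSG00000026610; chromosome 1, 187608791 to 188214885, plus strand), known from slow and oxidative muscle and the heart, was at 1.52 and 1.22 TPM (mean 1.37 ± 0.212, SD, n = 2) from 189 and 126 counts. Esrrb (ENSMUSG00000021255; chromosome 12, 86361117 to 86521628, plus strand), best known from pluripotent stem cells, was at 0.53 and 0.43 TPM (mean 0.48 ± 0.0707, SD, n = 2) from 66 and 51 counts.

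The 3 ERR genes were well apart in both pups. Esrra exceeded Esrrg by 3.59 in replicate 1 and 4.11 in replicate 2 on the log2 scale (mean 3.85 ± 0.36, SD, n = 2). It exceeded Esrrb by 5.19 ± 0.33, and Esrrg exceeded Esrrb by 1.34 ± 0.03 on the same scale. All of these ratios were beyond the spread. The low counts leave the lower members less exact: the deposited intervals ran from 1.29 to 2.21 TPM and from 0.948 to 1.87 TPM for Esrrg in replicates 1 and 2. For Esrrb they ran from 0.521 to 0.984 TPM and from 0.404 to 0.808 TPM.

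By expected counts, nearly all reads of Esrrg and all reads of Esrrb were given to a single start. Esrrg-201, which begins 389 kb inside the gene, took 185 and 121.74 counts in replicates 1 and 2, which is 97.9% and 96.6% of the gene's counts. The models with upstream starts held 4.0 and 4.26 counts. Because those models are short, the same few reads gave them 21.7% and 32.0% of the gene's TPM. Esrrb-204, whose start is 60.5 kb upstream of the one used by Esrrb-203, held every count of its gene in both pups (66 and 51). The deposited posterior means, which spread few reads over more models, gave Esrrg-201 53.6% and 45.4% of its gene and Esrrb-204 54.6% and 55.4%, so at these counts the models are loosely set. RefSeq gave Esrrg more than 1 start upstream of Esrrg-201. The window around the one at 187609006 held an exact match to the MEF2 site as searched here (a CTA and a TAG with any 4 bases between). It read CTATTTATAG and began 22 bases before that start. Of all windows, 3.69% held a match to that loose motif, and MEF2 factors are activators of muscle genes. The match is a description of the letters and not evidence of binding.

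The PPAR genes encode receptors for fatty acids. PPARα is known from liver, heart and muscle as the receptor that raises fatty acid oxidation, and PPARδ is known as the form that prevails in adult skeletal muscle. In these newborn libraries Ppara (ENSMUSG00000022383; chromosome 15, 85734983 to 85802819, plus strand) was far above Ppard (ENSMUSG00000002250; chromosome 17, 28232700 to 28301474, plus strand). Ppara was at 18.87 and 31.91 TPM in replicates 1 and 2 (mean 25.4 ± 9.22, SD, n = 2). Ppard was at 1.48 and 1.54 TPM (mean 1.51 ± 0.0424, SD, n = 2) from 134 and 127 counts. The log2 ratio of Ppard to Ppara was -3.59 and -4.29 (mean -3.94 ± 0.50, SD, n = 2), which was beyond the spread. Models typed as coding gave the same order, with Ppara at 11.8 and 10.4 TPM and Ppard at 1.41 and 1.36 TPM.

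Ppara was the member with the widest gap between the pups in TPM, and the gap was in short models. The TPM of replicate 2 was 1.69 times that of replicate 1, and the deposited intervals, 16.7 to 22.5 TPM and 27.2 to 36.0 TPM, did not overlap. The reads behind it hardly differed: 867 counts in replicate 1 and 832 in replicate 2. The effective length over which the files spread them was 1537 nt in replicate 1 and 922 nt in replicate 2.

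Among the models of Ppara, the 3 coding ones (Ppara-201, Ppara-202 and Ppara-203) held 810.6 and 681.1 counts, and their TPM was 0.887 times as high in replicate 2. The 3 non-coding models, of 315 to 367 nt, held 56.42 and 150.9 counts, which is 6.51% and 18.1% of the gene's counts. In TPM they made 37.5% of the gene in replicate 1 and 67.3% in replicate 2. Ppara-205 had 0 and 47.68 counts and Ppara-206 had 46.22 and 93.04, so the leading model in TPM was Ppara-201 in replicate 1 (37.3%) and Ppara-206 in replicate 2 (38.5%). By counts Ppara-201 led in both, with 47.7% and 44.7%.

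A plot of the model shares by counts and by TPM shows how far the 2 measures part for Ppargc1a, Ppara and Tfam.

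**Figure D1:**
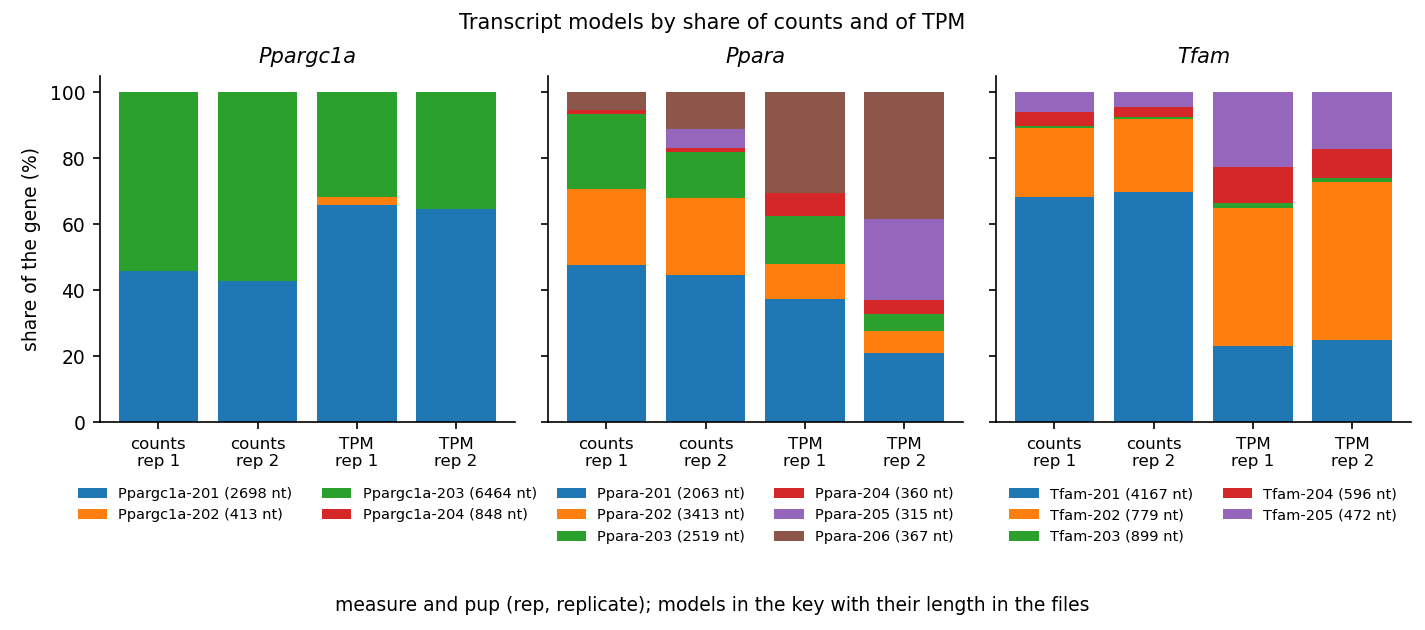
Stacked bars give each transcript model's share (%) of its gene, by expected counts and by TPM, in each replicate, for Ppargc1a, Ppara and Tfam, with the model lengths from the files in the key. Short models are thin in counts and thick in TPM: the 3 short models of Ppara held 6.51% and 18.1% of counts but 37.5% and 67.3% of TPM.

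The first exon of Ppara-206 ends 62 bases before the start of the coding model Ppara-202, and those bases (RefSeq, GRCm38.p6, chr15:85735714-85735775, plus strand) hold an exact match to the NRF1 site (a palindrome with any base at the sixth place), shown in capitals. It begins 31 bases before the start of Ppara-202.

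Ppara: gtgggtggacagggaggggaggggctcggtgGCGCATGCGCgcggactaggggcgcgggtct

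An NRF1 site was in 4.6% of the 32851 RefSeq windows of 300 bases. RefSeq gave 13 such windows for 8 of the 9 genes, and 3 windows held an exact match to any of 6 motifs, all searched on both strands. The others were the MEF2 site of Esrrg and, for Tfam, the NRF-2 (GABP) site CCGGAAG, which was in 8.86% of all windows. The Tfam match starts 47 bases before the RefSeq start at 71238044. Both lie inside exon 1 of Tfam-201 (71237840 to 71238280), so the match is not upstream of that model. The ERR element TNAAGGTCA (1.28% of all windows), the cAMP element and the PPAR element, a direct repeat of AGGTCA with 1 base between (0.0396% of all windows), had no exact match in any of the 13. For Ppargc1a the only window was the one at the upstream start, so its proximal start was not searched, and Ppargc1b had no window. No match says only that these letters are not in these windows. The share of all windows with any of the 6 motifs was not computed, so 3 of 13 is not read as many or few.

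NRF1 and TFAM stand downstream of PGC-1 as a DNA-binding activator of respiratory genes and as a protein of the mitochondrial genome itself. Nrf1 (ENSMUSG00000058440; chromosome 6, 30047988 to 30153458, plus strand) was at 13.76 and 13.57 TPM in replicates 1 and 2 (mean 13.7 ± 0.134, SD, n = 2), from 1127 and 1004 counts. It was the member whose 2 values lay closest in proportion. Its 21 models were divided unevenly between the pups. The coding models of 3584 nt and 3295 nt, whose coding parts are both 1509 nt long, took 62.4% and 63.1% of TPM between them. Apart, the model of 3584 nt had 43.2% in replicate 1 and 31.3% in replicate 2, and that of 3295 nt had 19.1% and 31.8%. A model of 1879 nt had 24.4% and 0.42%, while one of 1658 nt with the same coding length had 0% and 16.5%. A model of 1253 nt took 10.3% in each. Gabpa, the DNA-binding subunit of NRF-2, was at 15.49 and 15.31 TPM, and its log2 ratio to Nrf1 was 0.17 in both pups.

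Tfam (ENSMUSG00000003923; chromosome 10, 71225464 to 71238280, minus strand) was the highest of the 9 genes in TPM, at 53.57 and 55.18 in replicates 1 and 2 (mean 54.4 ± 1.14, SD, n = 2), from 2196 and 2278 counts. It exceeded Nrf1, which is known to act on its promoter, by a log2 ratio of 1.95 and 2.02 (mean 1.98 ± 0.04, SD, n = 2), beyond the spread. Short models also weigh on this level. Tfam-201, of 4167 nt, held 68.2% and 69.7% of the counts but 22.99% and 25.02% of TPM. Tfam-202, of 779 nt, held 20.8% and 22.3% of the counts and 41.9% and 47.9% of TPM. The other leading models were Tfam-205 (22.6% and 17.1% of TPM) and Tfam-204 (11.0% and 9.05%).

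These 2 leading Tfam models start their protein differently. The amino terminus of TFAM carries the signal for import into the mitochondrion and is encoded by the first coding exon, of 101 nt in Tfam-201 (chr10:71237840-71237940, minus strand) and 17 nt in Tfam-202 (chr10:71238235-71238251, minus strand). Capitals mark the coding bases of exon 1, and the next 21 bases are the start of exon 2, which both models share. The letters are from GENCODE M21 transcripts.

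Tfam-201: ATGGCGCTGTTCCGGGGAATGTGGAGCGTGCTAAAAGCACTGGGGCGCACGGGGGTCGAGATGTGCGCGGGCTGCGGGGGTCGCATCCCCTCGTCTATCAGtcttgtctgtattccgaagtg

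Tfam-202: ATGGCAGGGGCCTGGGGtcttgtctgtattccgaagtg

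Tfam-201 codes for 243 codons and Tfam-202 for 215, and both run on in the same exon 2. Tfam-203, which has an alternative first exon with no coding bases and codes for 199 codons, is of the kind known from testis, and it held 18.97 and 11.46 counts. Reads over the shared exons do not tell Tfam-201 from Tfam-202, so the split rests on the first exon and the long 3′ end of Tfam-201.

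Placed in order by TPM, the 9 genes ran Tfam, Ppara, Esrra, Ppargc1b, Nrf1, Ppargc1a, Ppard, Esrrg, Esrrb. By their TPM values alone, the ranges of neighbours over the pups did not overlap except in 2 pairs. Ppara was above Esrra in replicate 2 and below it in replicate 1, and the ranges of Ppard and Esrrg overlapped. Ppargc1b and Nrf1 were not clearly apart either. In replicate 1 they stood at 13.96 and 13.76 TPM with overlapping deposited intervals (12.9 to 14.8 and 13.7 to 16.1 TPM), and by posterior mean TPM, the deposited average over the estimate's uncertainty, Nrf1 was the higher there (14.9 against 13.85).

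**Figure D2:**
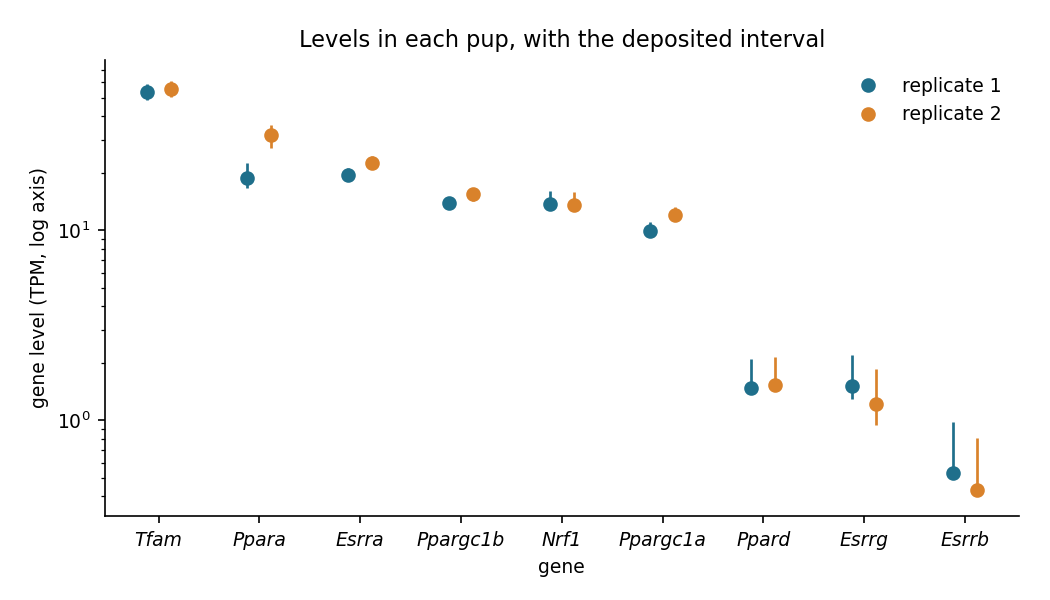
Points give the level of each gene in TPM on a log axis in replicate 1 and replicate 2, and bars the interval the authors deposited for each value. A gap separates the 6 genes above 9 TPM from Ppard, Esrrg and Esrrb below 2 TPM, and Ppara (18.87 and 31.91 TPM) is the gene whose pups stand farthest apart in proportion.

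The gap between the 6 and the 3 was seen with every measure of level per length that was computed, while the order within the 6 was not. With counts divided by the length in kb of the longest coding model and by the library's total, per 1000000 counts, Esrra came to 13.1 and 15.8 in replicates 1 and 2, level with Tfam at 13.0 and 14.7. Ppara came to 6.28 and 6.56, below Nrf1 at 7.77 and 7.54. Ppargc1a stayed the lowest of the 6 with 4.23 and 5.56, and Ppargc1b (9.43 and 10.4) stayed above it. With TPM of coding models only, Tfam (47.7 and 50.2) kept its lead.

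**Figure D3:**
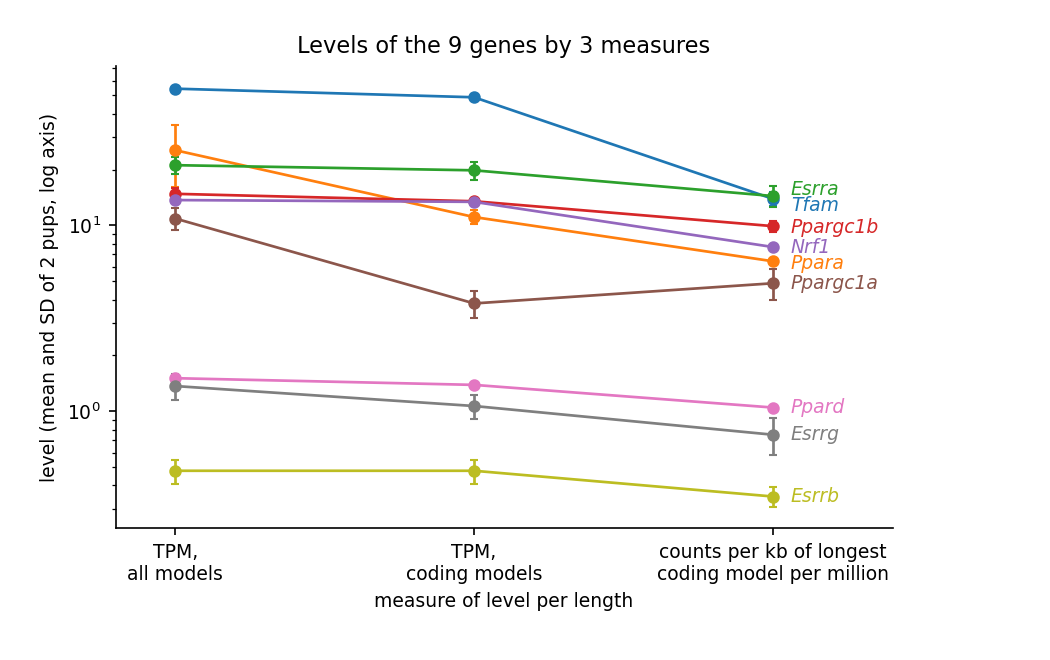
Lines join the mean level of each gene (bars, SD of 2 pups; log axis) by TPM of all models, TPM of coding models, and counts per kb of the longest coding model per 1000000 counts. Tfam falls from 54.4 to 13.9 and meets Esrra at 14.4, Ppara falls from 25.4 to 6.42, and Ppard, Esrrg and Esrrb stay lowest throughout.

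The members were also compared between the pups by counts. Expected counts were scaled with TMM, a factor that sets the bulk of genes equal, and each gene's value in replicate 2 was divided by that in replicate 1, with an exact 95% interval for counting error only. Of the 9 genes, 0 were over 1.5-fold apart, against 14.4% of the 17004 genes with at least 10 mean counts, and 0 were over 2-fold apart, against 6.34%. With 9 genes, 0 cannot be set apart from those shares, and the 17004 include genes of far fewer counts than most members. Among the 6396 genes of 500 to 3000 mean counts, the log2 ratio had a scaled median absolute deviation, a measure of spread, of 0.19. The ratio was widest for Ppargc1a at 1.40 (interval 1.29 to 1.51), then Esrrg at 0.773 (0.612 to 0.973) and Esrra at 1.28 (1.18 to 1.38). Tfam was at 1.20 (1.13 to 1.28), Ppargc1b at 1.18 (1.09 to 1.27) and Ppara at 1.11 (1.01 to 1.22). The intervals of Ppard (1.10, 0.855 to 1.41), Nrf1 (1.03, 0.947 to 1.13) and Esrrb (0.896, 0.609 to 1.31) included 1. In all, 7 of the 9 genes had the higher value in replicate 2. The median log2 ratio of the 9 was 0.15, against -0.014 over all genes tested. Scaled to total counts, Nrf1 turned to -0.04 on the log2 scale and the direction of the other 8 was the same. The log2 ratio of Ppargc1a, 0.48, was above that of 93.2% of the genes tested, and that of Esrra, 0.35, was above 89.1%. By TPM in place of counts, 1 member, Ppara, passed 1.5-fold.

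**Figure D4:**
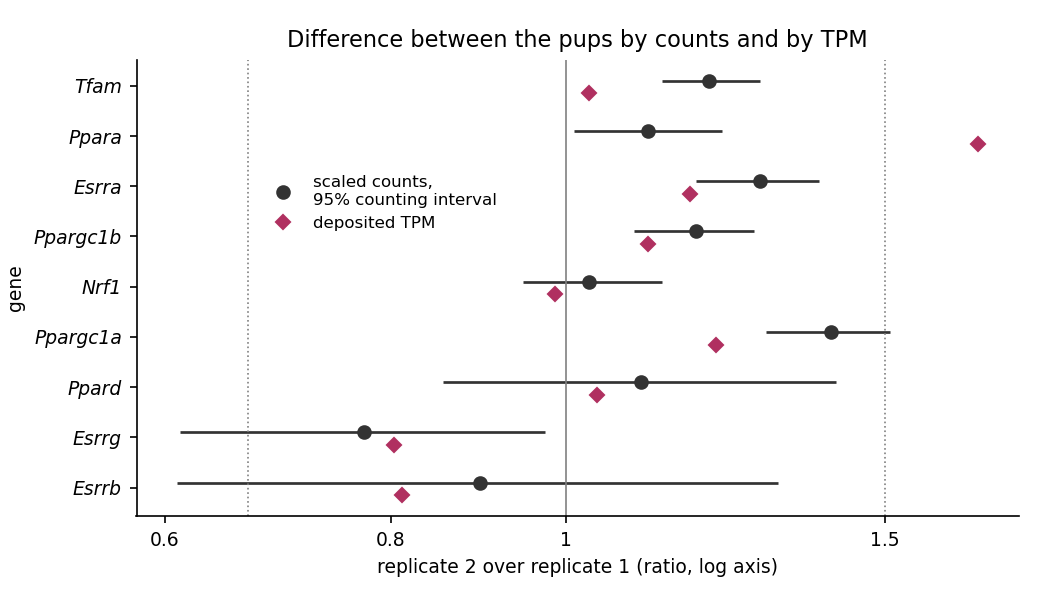
Circles give the ratio of replicate 2 over replicate 1 by scaled counts, with bars for the exact 95% interval of counting error, and diamonds the ratio by deposited TPM, both on a log axis with 1.5-fold either way dotted. By counts each of the 9 lies inside the dotted lines, and by TPM Ppara stands outside at 1.69.

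The libraries held 40454600 and 37150684 expected counts of mouse genes in replicates 1 and 2, and differed in markers of tissues that border muscle. White fat markers summed to 5493 and 1106 TPM (10 of 10 over 1.5-fold higher in replicate 1; Fabp4 at 2591 and 787 TPM, Cfd at 1499 and 40.0). Epidermis markers summed to 546 and 20.7 TPM (11 of 12; Krt1 at 164 and 0.26, Krt10 at 104 and 3.79, Lor at 67.55 and 0.04), and cartilage markers to 61.5 and 6.52 TPM (10 of 10; Col2a1 at 24.09 and 0.27, Col9a3 at 10.27 and 1.26). Liver markers, led by Trf at 591 and 64.2 TPM and Apoa1 at 6.4 and 11.0, summed to 617 and 99.5 TPM, a fall made by Trf, since the scaled counts of the other 8 of 9 were higher in replicate 2. Leukocyte markers, led by Cma1 and Cpa3, summed to 1363 and 789 TPM. Fibroblast markers, led by Col3a1 and Sparc, summed to 9662 and 6893 TPM, endothelial ones, led by Egfl7 and Pecam1, to 305 and 279 TPM, and heart ones, led by Myl4 and Myl3, which developing skeletal muscle also makes, to 1092 and 884 TPM. All 14 skeletal muscle markers had higher scaled counts in replicate 2 (median log2 ratio 0.21), and the defining genes of the labelled tissue were abundant, led by Acta1 (49664 and 57562 TPM) and Tnnc2 (19078 and 19438 TPM). No marker was at 0 counts in both pups. In replicate 2, Snorc of the cartilage list and Ucp1 and Otop1 of the brown fat list were at 0 counts, and in replicate 1 Nkx2-5 of the heart list. The part of these cells in the ratios of the 9 genes was not tested. In bulk RNA, fewer cells of a type and less RNA per cell cannot be told apart.

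Brown fat also relies on Ppargc1a, so its markers are given here, and the part of brown fat in that gene's level was not tested. Without Ppargc1a, 3 of 8 brown fat markers were at 1 TPM or more, and their sums were 31.8 and 30.9 TPM. Cidea, at 24.78 and 23.91 TPM, made most of it, followed by Gk at 3.66 and 4.23 TPM, while the defining gene Ucp1 had 6 and 0 counts. Pparg, the fat-cell member of the PPAR family, followed the white fat markers: it was at 40.74 TPM in replicate 1 and 7.76 in replicate 2, and its scaled counts in replicate 2 were 0.212 times those in replicate 1 (interval 0.189 to 0.236). Its log2 ratio to Ppara was 1.11 in one pup and -2.03 in the other, and that to Ppard was 4.69 and 2.26, and neither was beyond the spread. No order of Pparg against Ppara can be given for this muscle.

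Genes that work with the 9 were present at like levels. For this list and those that follow, 58.2% of all protein-coding genes were at 1 TPM or more. Of all genes with at least 10 mean counts, 14.4% were over 1.5-fold apart, and these include genes of far fewer counts. Whether a list departs from these shares was not tested. Of the related coactivators and receptors, 13 of 14 were at 1 TPM or more, with a median of 14.1 TPM against 13.7 for the 9 genes. Rxrg led at 53.04 and 43.92 TPM. It encodes a retinoid X receptor, the class of partner with which PPARs bind DNA, and Rxrb followed at 26.93 and 25.79 TPM. The thyroid hormone receptor gene Thra was at 33.95 and 36.67 TPM and the orphan receptor gene Rora at 28.86 and 28.57 TPM. Only Pparg and the thyroid hormone receptor gene Thrb (0.67 and 0.3 TPM, ratio 0.514) were over 1.5-fold apart in this list, both higher in replicate 1.

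Partners that bind or modify PGC-1 were all at 1 TPM or more (15 of 15 measured, median 14.6 TPM), and 0 were over 1.5-fold apart. The corepressor gene Ncor1, at 71.54 and 66.1 TPM, and Mybbp1a, a known repressor of PGC-1α, at 51.74 and 50.78 TPM, stood highest. Fbxw7, of a ubiquitin ligase, was at 22.56 and 25.39 TPM, and the Mediator gene Med1 at 22.21 and 21.73 TPM. Of the signalling genes upstream of Ppargc1a, 21 of 22 were at 1 TPM or more (median 15.4 TPM), and 0 were over 1.5-fold apart. MEF2 genes led them, with Mef2c at 143.76 and 148.72 TPM, Mef2d at 53.61 and 56.71 TPM and Mef2a at 40.55 and 39.2 TPM, followed by the AMP kinase subunit gene Prkag1 at 42.94 and 34.73 TPM.

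Genes that keep and read mitochondrial DNA were all at 1 TPM or more (22 of 22 measured, median 16.1 TPM), and 0 were over 1.5-fold apart. Tfam was above 19 of them in mean TPM. Slirp, which steadies mitochondrial messenger RNA, was at 253 and 221 TPM, Hsd17b10, a subunit of mitochondrial RNase P, at 163 and 144 TPM, and Ssbp1, the mitochondrial single-strand binding protein, at 81.9 and 77.7 TPM. Tefm, the elongation factor, was at 35.1 and 36.81 TPM. Of the 142 genes in the pathway lists, the 3 nearest to Ppargc1a in level over both libraries were Mtor (10.29 and 12.67 TPM), the helicase gene Twnk (10.56 and 12.74 TPM) and Tfb1m (11.33 and 11.21 TPM), with summed log2 differences of 0.13, 0.18 and 0.29. Over 2 libraries such a likeness is one of level only.

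The known target genes stood far above their regulators. Fatty acid genes of the PPAR and ERR receptors had a median of 132 TPM (29 of 29 at 1 TPM or more). Fabp3, the muscle fatty acid binding protein, was at 880 and 946 TPM, Etfb, of the electron transfer flavoprotein, at 678 and 630 TPM, and the oxidation enzymes Acadl and Acaa2 at 640 and 625 TPM and at 479 and 509 TPM. Lpl and Ucp2 were over 1.5-fold apart, each with a scaled ratio of 0.664, higher in replicate 1. The white fat markers were higher there too, and their part in these ratios was not tested. Respiratory genes of ERR and NRF1 had a median of 553 TPM (25 of 25), led by Atp5b (4286 and 4139 TPM), Atp5g1 (1786 and 2071), Cox4i1 (1728 and 1662) and Cox6c (1574 and 1752). In scaled counts 24 of these 25 were higher in replicate 2, with a median log2 ratio of 0.21, and Cox7a1, a muscle form of a cytochrome oxidase subunit, was past 1.5-fold with a ratio of 1.52 (interval 1.44 to 1.61).

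The mitochondrial genome itself, which TFAM packs and on which it helps start transcription, was higher in replicate 2 for 15 of 15 genes, 9 of them past 1.5-fold, with a median log2 ratio of 0.60. It made 2.96% and 4.58% of the counts of replicates 1 and 2. The highest were mt-Atp6 (11746 and 16059 TPM), mt-Atp8 (10962 and 12803), mt-Rnr2 (6675 and 10144) and mt-Nd1 (4447 and 5875). The widest ratios were those of mt-Co1 at 2.65, mt-Rnr1 at 1.98 and mt-Nd4l at 1.83. Beside it, the ratio of Tfam was 1.20 and that of Nrf1 was 1.03. Nuclear copies of mitochondrial genes share reads with them, which makes single values of this list uncertain.

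**Figure D5:**
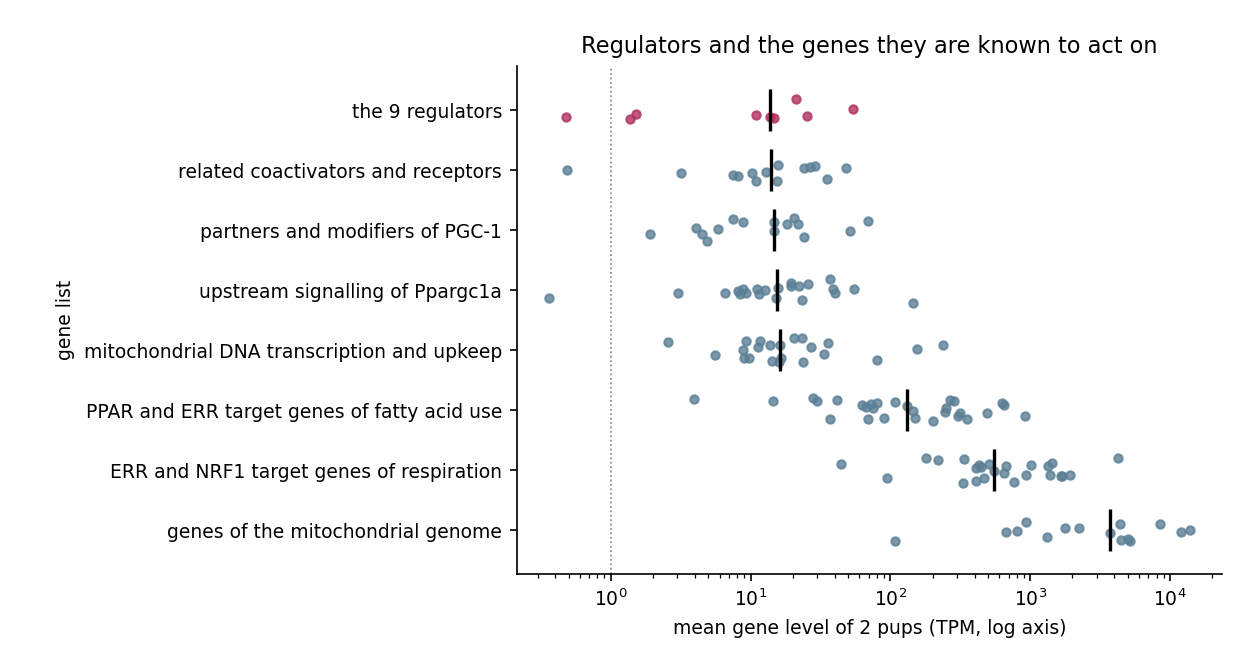
Points give the mean TPM (log axis, 2 pups) of each gene in the 9 regulators and in 7 pathway lists, a black bar marks the list median, and the dotted line marks 1 TPM. Medians of the regulators and their partners lie between 13.7 and 16.1 TPM, and those of the fatty acid, respiration and mitochondrial genome lists at 132, 553 and 3702 TPM.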

How the data were processed

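Total RNA of 2 newborn muscle samples was analysed from the gene and transcript tables of each. Per the files deposited with them, quantification used transcriptome alignments to mm10 with GENCODE M4. The aligner and quantifier: not given in the sources used here. The authors deposited expected counts (estimated reads, split between features by a model) and TPM, per the file headers. For transcripts, the deposited percent states what part of its gene's TPM each model makes. The bounds of the TPM interval that the authors deposited were taken as a score and printed as given. Expected counts were rounded and TMM scaling from edgeR 4.0.16 under R 4.3.3 was used for ratios between pups, with a prior count of 2, for genes with at least 10 mean counts. Size factors of DESeq2 1.42.0 were an alternative. A test was not run, since each pup gave 1 library and no residual degrees of freedom remain. Ratios between genes used log2 of TPM plus 0.1. Intervals are exact Clopper-Pearson at 95%, and they and the floor of 3 counts cover counting error only. The ratio script was tested on simulated data.

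Names and positions came from GENCODE M21 of the same build (42462 of 43346 gene IDs matched, 53 of 61 transcript models of equal length). Columns left unmapped numbered 0. The 9 genes, the 18 gene lists and the limits were chosen with earlier results of these data known. Prmt1 and Prorp had no match. Named are all 9 genes, the 4 highest of each pathway list with up to 3 past 1.5-fold, the 2 highest of each marker list with the widest ratio where sums differed over 2-fold, the 3 pathway genes nearest to Ppargc1a in level, and transcripts of 10% of TPM or more. Genes and models named outside this rule (Tfam-203, Esrrb-203, Pprc1, Gabpa, Trmt112, Ucp1, Snorc, Otop1 and Nkx2-5) were chosen for their role or as zeros after values were seen. Alternatives covered scaling, prior count, pseudocount, posterior means, count filters, fold limits and leaving out each pup, and sums over coding models, counts per kb and TPM ratios were added after seeing the data. Other steps ran in Python 3.11.15 with scipy 1.17.1, pandas 2.3.3, matplotlib 3.10.9 and numpy 2.4.6.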

Additional observations from a re-analysis of the deposited data

How the results depend on the processing

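Of 57 alternative values for the main results, 49 stayed within the limits set for no change, 7 moved and 1 was weaker. In this tally and the next, most values with 1 pup left out could not change. With 2 pups, a level or share from either alone always lies within the SD of the mean. A ratio between genes whose sign both pups share keeps that sign with either left out. For ratios between genes the limit was the same sign and, with both pups, the same call against 3 SD, so sizes could change. The log2 ratio of Ppargc1b to Ppargc1a, 0.43, became 1.81 over coding models and 1.02 by counts per kb. That of Tfam to Nrf1, 1.98, became 0.85 by counts per kb. Members at the level limit fell from 8 to 6 at 2 TPM. For ratios between the pups only the sign was judged. Of 102 others, 76 stayed within them, 24 levels moved by more than the SD of the pups, and 2 ratios changed sign. The level of Ppargc1a was 13.3 TPM scaled to nuclear protein-coding genes, 3.81 TPM over coding models and 4.89 counts per kb per 1000000 counts, and 9.9 to 12.0 TPM with either pup alone. Its ratio to Ppargc1b was no longer beyond the spread in counts with no length correction (0.21 ± 0.18 on the log2 scale). Members over 1.5-fold apart numbered 1 by deposited TPM, and 3 at a limit of 25% (by counts, the higher pup over the lower). The share of Ppargc1a-201 was 61.9% by posterior means and 44.2% by counts. The ratio of Nrf1 between the pups, 0.05 on the log2 scale, turned to -0.04 when scaled to total counts and to -0.02 by TPM. The cause was not tested. No paired analysis was possible because there is 1 group. Counts of 51 to 189 limit Esrrb, Esrrg and Ppard.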
